A study of Homo sapiens with 6 samples.

Results

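Keratins and vimentin build the intermediate filaments of the cytoskeleton, and 7 of their genes (KRT7, KRT8, KRT18, KRT19, KRT80, KRT81 and VIM) are described here in ES2 cells with and without UAP1 knocked down. They were taken by gene name from a count table of 58735 genes. Each name matched 1 gene, and 6 of the 7 had enough counts to be tested among 15768 tested genes. KRT19 did not.

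ES2 is an established human ovarian cancer cell line, which the labels call high-grade serous carcinoma and which is often classed elsewhere as clear cell carcinoma. The study compared 3 libraries of cells given a control siRNA (genotype label WT) with 3 libraries of cells given UAP1 siRNAs. Such siRNAs silence a gene by guiding the cell's own nuclease to its transcript. All cells received their siRNA with a lipid reagent, had the medium changed after 6 hours and were harvested for RNA after 48 hours. The labels list 2 siRNAs against UAP1, the gene of the last enzyme of UDP-GlcNAc synthesis, and 1 control siRNA, and do not say which library received which UAP1 siRNA. Nor do they say that replicates were separate cultures, so each p-value reflects only how these libraries vary, and that variation may be technical.

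Keratins come in type I (acidic) and type II (basic) forms, and a filament needs 1 of each kind. KRT8 and KRT18 are the pair of simple epithelia, KRT7 is a second simple-epithelial type II chain, KRT19 a simple-epithelial type I chain, KRT80 a type II chain found in many epithelia, and KRT81 a type II chain of the hair shaft. Vimentin is a type III protein that forms filaments on its own and is typical of mesenchymal cells and of many cultured lines. Cells in culture often carry both networks.

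Of the 6 keratin genes, 5 lie on chromosome 12 (GRCh38, coordinates of the deposited table): KRT80 at 52168996 to 52192000 (minus strand), KRT7 at 52232520 to 52252186 (plus), KRT81 at 52285913 to 52291534 (minus), KRT8 at 52897187 to 52949954 (minus) and KRT18 at 52948871 to 52952901 (plus). KRT19 lies on chromosome 17 (41523617 to 41528308, minus) and VIM on chromosome 10 (17228259 to 17237593, plus). KRT81 has a close copy, KRT86, whose annotated span on the opposite strand encloses it (52249300 to 52309163). The coding sequences of KRT81 and KRT86 (GENCODE release 29, principal transcript of each) were identical at 93.6% of 1454 aligned bases, with 605 bases in a row the same.

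The counts of some members are therefore uncertain, since how reads with several matches were counted, and whether strand was used, is not given in the sources used here. Of all 50-base windows of the principal KRT81 transcript, 44.6% also occur in another annotated gene, 38.4% in KRT86. For KRT8 the share was 37.1% and for KRT18 31.8%, and these windows occur in 37 and 43 other genes, pseudogenes among them. It was 1.79% for KRT19, 0.997% for KRT7, 0.42% for KRT80 and 0 of 1819 windows for VIM. Little signal was assigned to the copies. The 50 KRT8 pseudogenes in the table summed to between 6.05 and 9.55 CPM (counts scaled to a common library total) per library, the 67 KRT18 pseudogenes to between 0.205 and 1.27, and KRT86 had between 17.1 and 34.9. KRT83 and KRT85, the next closest hair keratins, had at most 4 counts and 1 count in any library. KRT8 and KRT18 share 525 exonic bases on opposite strands (7.63% of the exonic bases of KRT8, 16.3% of those of KRT18), and 8 of 17 annotated KRT8 transcripts reach into the KRT18 span. KRT7 shares 282 exonic bases with the antisense gene KRT7-AS (mean 7.12 CPM) and VIM 641 with VIM-AS1 (3.19 CPM). KRT80 and KRT81 share no exonic base with a neighbour that overlaps them.

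Library totals ran from 21267240 to 25972582 counts, UAP1 had 7341 to 10848 counts in the control and 521 to 642 in the siUAP1 libraries, and no library stood apart as a repeat of another. Several defining markers of the labelled tumour type were absent: of 8 serous carcinoma markers, FOLR1, MUC16 and SOX17 had no count in any library, and the whole list summed to 3.14 to 4.85 CPM in control and 3.94 to 5.74 CPM in siUAP1 libraries. Clear cell carcinoma markers were also partly missing. NAPSA had 21 counts over all 6 libraries and GPX3 averaged 0.642 CPM in control, where ARID1A averaged 117 and ANXA4 22.6 CPM. The tumour type was not tested with these lists. Of 9 epithelial markers, the defining CDH1, EPCAM and ESRP1 had 1, 6 and 3 counts over all 6 libraries, and the list summed to 10.3 to 11.4 CPM in control and 13.5 to 15.2 CPM in siUAP1 libraries. Keratin RNA was thus read in cells that hardly expressed E-cadherin or EpCAM. Of 6 keratinocyte markers, KRT1, KRT5, KRT14 and IVL had no count, while TP63 averaged 56.3 CPM and KRT10 25.0 CPM in control libraries. The leukocyte and erythroid lists summed to at most 0.369 and 0.0393 CPM.

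In control cells KRT81 and VIM were by far the most abundant members. FPKM (counts per length of gene and per depth of library, the scale on which genes can be compared) averaged 799 ± 166 for KRT81 (SD, n = 3), 399 ± 69.3 for VIM, 111 ± 18.1 for KRT18, 81.7 ± 14.4 for KRT7, 23.5 ± 6.66 for KRT80, 21.9 ± 5.10 for KRT8 and 0.0512 ± 0.0563 for KRT19. A hair keratin thus led the list, and KRT19 was close to nothing. In this order the control ranges of neighbouring genes overlapped for KRT80 and KRT8 and for no other pair, although KRT18 (lowest 97.0) and KRT7 (highest 92.8) lay close together. The order depends on the length used. The deposited length counts every annotated exon (6881 bases for KRT8, 5158 for VIM), whereas the principal transcripts have 1882 and 1868 bases. Per kilobase of principal transcript, control CPM averaged 1111 for VIM, 806 for KRT81, 232 for KRT18, 192 for KRT7, 80.7 for KRT8 and 26.7 for KRT80, so VIM then stood above KRT81 and KRT8 above KRT80.

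The comparison of siUAP1 with control asked how these filament genes differed with UAP1 knocked down. Within the pairs of libraries that share a replicate number, KRT8, KRT80, KRT7 and KRT18 rose by 1.41-fold to 1.71-fold, KRT81 rose by 12.9%, and VIM fell by 9.54%. All 6 tested members moved in the same direction in all 3 pairs. Replicate numbers also differed within each group, and a test on the groups alone called 0 of the 6 (edgeR quasi-likelihood test, adjusted p under 0.05), where it called 0.108% of all tested genes (0.0317% as higher with siUAP1), with 4 of 6 at an unadjusted p under 0.05 (7.13% of all tested genes). With the replicate number as a block, edgeR called all 6 (16.2% of tested genes), of which 5 rose (9.07% of tested genes rose) and 1 fell (7.14% fell). DESeq2 called 2 members without the block, KRT8 (adjusted p = 0.0284) and KRT80 (adjusted p = 0.0464), where it called 1.06% of the genes it tested, and 6 with the block, where it called 10.8%. The median log2 fold change of the 6 was 0.54 with pairs, against -0.00295 over all tested genes. Since the members were chosen with results of these data known, these counts describe them and are no independent evidence. In bulk RNA, fewer cells that express a gene and less RNA per cell cannot be told apart. The planned test was the one on the groups alone, with the block planned as an alternative. Pairs were adopted after a check on these same data. From here on rose and fell refer to the fit with pairs.

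**Figure D1:**
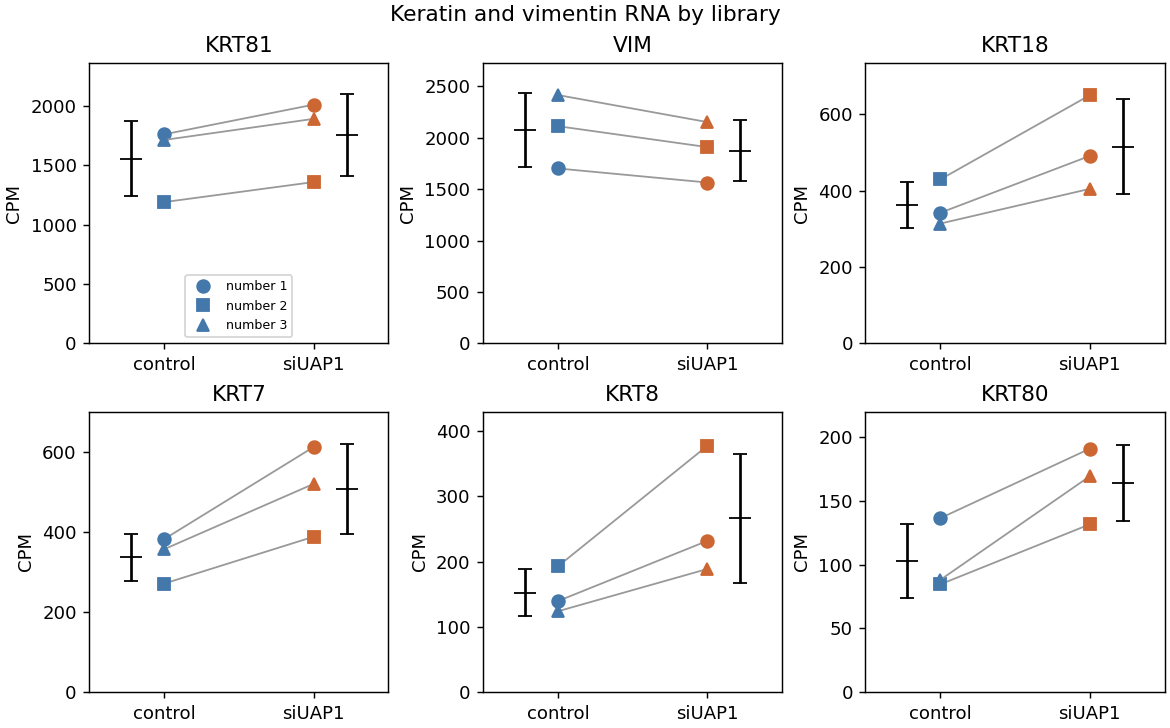
CPM of the 6 tested members (vertical axes, each from 0) in control (blue) and siUAP1 (orange) libraries, with grey lines joining libraries of the same replicate number and black bars giving mean ± SD over 3 libraries. Each of the 3 lines climbs for the 5 keratins and drops for VIM, while the groups overlap for all but KRT7.

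Of the type II keratins, KRT8 had the highest paired log2 fold change, although its order against KRT80 was not stable. Without pair 2 the values were 0.67 for KRT8 and 0.71 for KRT80. The CPM of KRT8 was 139, 193 and 124 in control replicates 1 to 3 and 232, 378 and 189 in siUAP1 replicates 1 to 3. Number 2 was the highest in both groups, and the groups overlapped, since control 2 (193) stood just above siUAP1 3 (189). The log2 fold change was 0.78 with pairs (SE 0.0555, edgeR adjusted p = 2.39e-10) and 0.81 on the groups alone (SE 0.257, adjusted p = 0.438). Among all tested genes, 378 had a paired log2 fold change of at least this size, counting KRT8 itself. The groups-alone value was 0.47 without siUAP1 replicate 2, the library with most KRT8.

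KRT7, the other simple-epithelial type II chain, had 383, 271 and 357 CPM in control and 613, 389 and 521 CPM in siUAP1 libraries. Here number 2 was the lowest in both groups. KRT7 was the only member whose groups did not overlap, a separation seen with siUAP1 above control in 6.74% of tested genes and below it in 5.71%, and the margin was small (383 against 389). It rose by 0.58 on the log2 scale (SE 0.0476, adjusted p = 2.19e-09; groups alone 0.59, SE 0.183, adjusted p = 0.411). Its antisense neighbour KRT7-AS, whose exons overlap it, rose by 0.71 (SE 0.145, adjusted p = 0.000952), from 5.31 to 8.94 CPM, and without knowledge of strand the reads in the 282 exonic bases shared with KRT7 (6.89% of its exonic bases) cannot be assigned to either gene.

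KRT80 had 136, 84.4 and 87.9 CPM in control and 191, 132 and 169 CPM in siUAP1 libraries. Number 1 was the highest in both groups, and control 1 (136) overlapped siUAP1 2 (132). KRT80 rose by 0.69 (SE 0.0614, adjusted p = 9.06e-09; groups alone 0.67, SE 0.203, adjusted p = 0.395), with single pairs at 0.49, 0.64 and 0.94. It is the member whose counts have the least shared sequence among the keratins that rose.

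KRT81, the hair keratin, was the most abundant keratin in every library. It had 1760, 1189 and 1713 CPM in control and 2011, 1359 and 1891 CPM in siUAP1 libraries. Number 2 was far below the others in both groups, and the groups overlapped widely. The paired rise was small, 0.18 on the log2 scale (SE 0.0469, adjusted p = 0.0106; groups alone 0.17, SE 0.186, adjusted p = 0.965). The call ended without pair 2 (adjusted p = 0.0846) or pair 3 (0.172), with values of 0.17 and 0.19. The groups-alone value was 0.01 without control replicate 2, 0.06 without siUAP1 replicate 1, 0.27 without control replicate 1 and 0.33 without siUAP1 replicate 2. KRT86, its copy, had 28.4, 17.1 and 26.1 CPM in control and 34.9, 21.7 and 33.3 CPM in siUAP1 libraries. It rose by 0.33 (SE 0.0753, adjusted p = 0.00296), and number 2 was its lowest in both groups, as for KRT81. Whether KRT86 counts are reads of KRT81 was not tested.

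Of the type I keratins, KRT18, the partner of KRT8, had 342, 429 and 314 CPM in control and 491, 650 and 405 CPM in siUAP1 libraries. Number 2 was the highest in both groups, as for KRT8, and control 2 (429) overlapped siUAP1 3 (405). KRT18 rose by 0.50 (SE 0.0494, adjusted p = 5.28e-08; groups alone 0.51, SE 0.182, adjusted p = 0.546), and the groups-alone value was 0.31 without siUAP1 replicate 2. KRT19 had 1, 7 and 1 counts in control and 7, 0 and 5 counts in siUAP1 libraries. At this depth 3 counts correspond to 0.116 to 0.141 CPM, so KRT19 was at or near the limit of detection in both groups and no difference was detectable.

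Vimentin went the other way. VIM had 1700, 2112 and 2414 CPM in control and 1564, 1908 and 2151 CPM in siUAP1 libraries. Number 1 was the lowest and number 3 the highest in both groups, and the groups overlapped. The fall was 0.14 on the log2 scale, small but alike in the 3 pairs (log2 differences of -0.12, -0.15 and -0.17 in pairs 1 to 3), with SE 0.0471 and adjusted p = 0.036 (groups alone -0.15, SE 0.156, adjusted p = 0.963). As for KRT81, the call ended without pair 2 (adjusted p = 0.152) or pair 3 (0.376). The groups-alone value shrank to -0.03 without control replicate 3 or without siUAP1 replicate 1, and was -0.27 without control replicate 1 and -0.26 without siUAP1 replicate 3.

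The members fell into patterns that differed between replicate numbers. Across the 6 libraries, Pearson's r of log CPM was 0.997 for KRT8 and KRT18, which share exonic bases and neighbour each other, 0.925 for KRT7 and KRT80 and 0.844 for KRT7 and KRT81. It was 0.205 for KRT7 and KRT8, -0.331 for KRT8 and KRT81, and between -0.683 and -0.322 for VIM with each tested keratin. These values describe 6 libraries that share the knockdown and the replicate numbers. The genes (of 10341 that code for protein and averaged 5 CPM or more) most like KRT8 over the 6 libraries were TGM2 (r = 0.997), which encodes the protein crosslinking enzyme transglutaminase 2, KRT18 (0.997) and TMEM237 (0.993). Those most like VIM were PALB2 (0.998), TTC19 (0.997) and NUF2 (0.995). TGM2 rose from 1244 to 1481 CPM (log2 0.25, SE 0.0471, edgeR adjusted p = 0.000452). TMEM237 also rose (0.28, adjusted p = 0.000826) and NUF2 fell (-0.28, adjusted p = 0.000462), while PALB2 and TTC19 were not called (adjusted p = 0.174 and 0.153). On the groups alone edgeR called none of these, with adjusted p from 0.608 for TMEM237 to 0.971 for PALB2 (0.706 for TGM2).

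The balance of the members per length was compared in ratios of FPKM. The ratio of KRT8 to its partner KRT18 was 0.191, 0.210 and 0.184 in control and 0.221, 0.272 and 0.218 in siUAP1 libraries. The groups did not overlap, and the difference was 0.28 on the log2 scale (pairs 0.21, 0.37 and 0.24; exact two-sided permutation test p = 0.1, the smallest that 3 against 3 libraries allow). Whether the bases that both genes share bear on this ratio was not tested.

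The keratins together exceeded vimentin in every library. The sum of the 6 keratins was 3.53, 2.11 and 2.37 times VIM in control and 4.69, 2.94 and 3.12 times VIM in siUAP1 libraries. The ratio was higher with siUAP1 in each of the 3 pairs (log2 0.41, 0.48 and 0.39), but the groups overlapped (mean difference 0.43, exact permutation p = 0.3). Without KRT8 and KRT18 the difference was 0.38, a value without the genes that overlap each other. Per kilobase of principal transcript the ratio was lower, 1.60, 1.04 and 1.07 in control and 2.24, 1.54 and 1.46 in siUAP1 libraries.

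Type II RNA (KRT7, KRT8, KRT80 and KRT81) exceeded type I RNA (KRT18 and KRT19) in every library. The ratio was 9.95, 5.47 and 10.4 in control and 8.32, 4.38 and 9.33 in siUAP1 libraries. It was lower with siUAP1 in each pair (log2 -0.26, -0.32 and -0.16), while the groups overlapped (mean difference -0.25, exact permutation p = 0.5). The sign turned without KRT80 and KRT81 (0.14) and without siUAP1 replicate 2 (0.09), the latter on the groups alone, where leaving out 1 library unbalances the replicate numbers. Most of the excess was KRT81, and per kilobase of principal transcript the ratio was 2.79 to 5.88.

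**Figure D2:**
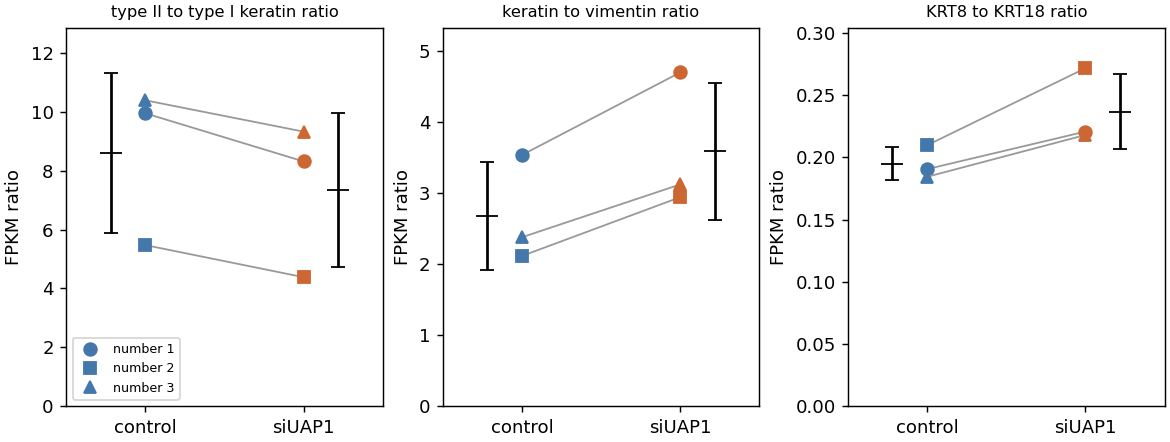
FPKM ratios per library (vertical axes from 0) for type II over type I keratins, keratins over vimentin and KRT8 over KRT18, control in blue and siUAP1 in orange, lines joining the same replicate number, black bars mean ± SD over 3 libraries. The lines fall in the first panel and climb in the other panels, and the groups are apart only for KRT8 over KRT18 (highest control 0.210, lowest siUAP1 0.218).

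The rest of the intermediate filament family was described in the same way. Outside the members, 15 of 62 other intermediate filament genes were tested, and 3 rose, 2 fell and 10 were not called (over all tested genes 9.07% rose and 7.14% fell), with a median log2 fold change of -0.04 against -0.00295 for all tested genes. KRT86 and KRT79 (0.60, SE 0.192, adjusted p = 0.0321, from 3.02 to 4.55 CPM) rose, as did the neurofilament light chain gene NEFL (0.32, SE 0.0579, adjusted p = 0.000268). KRT15, a type I chain of basal epithelial cells, fell from 11.4 ± 1.84 to 8.18 ± 0.804 CPM (-0.47, SE 0.128, adjusted p = 0.0125), and LMNB2, a lamin of the nuclear envelope, fell by 0.15 (adjusted p = 0.0359). Not called were LMNA (-0.04), LMNB1 (-0.07), NES (0.11), SYNM (-0.10), INA (-0.15), KRT10 (0.07) and KRT34 (-1.14, adjusted p = 0.131, under 1 CPM). No count in any library was given to 30 of the 62, among them the basal pair KRT5 and KRT14.

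**Figure D3:**
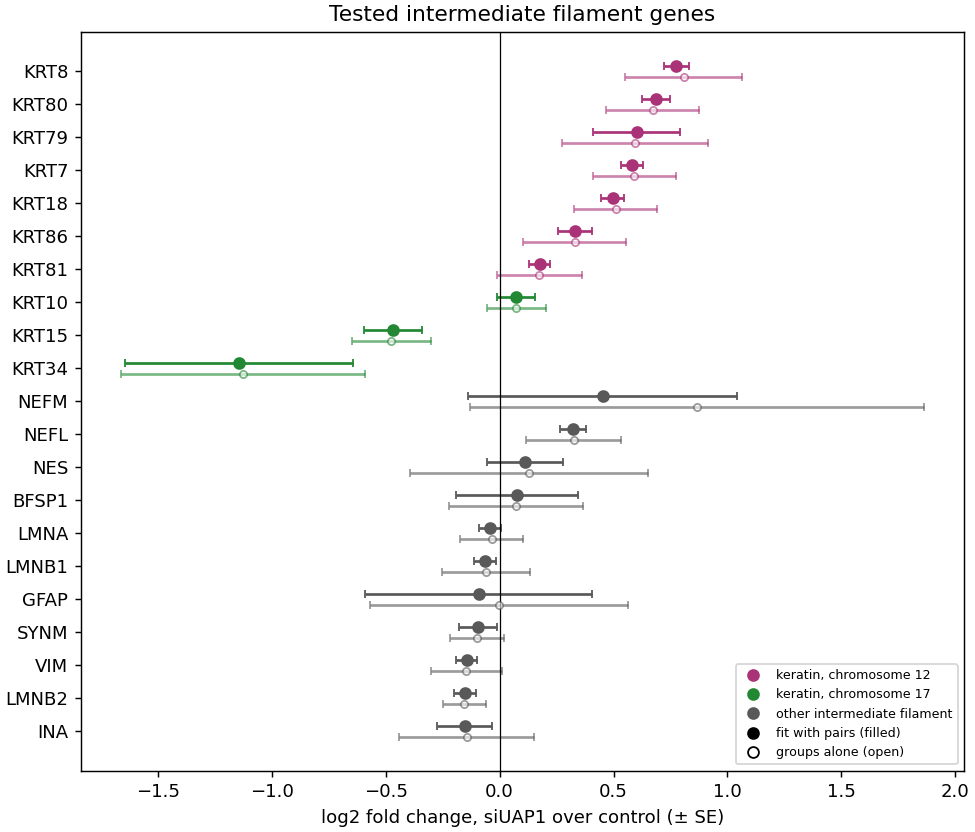
Log2 fold change ± SE of siUAP1 over control (horizontal axis) for the 21 tested intermediate filament genes, filled points from the fit with pairs and open points from the groups alone, coloured by kind and chromosome. The 7 keratins of chromosome 12 lie between 0.18 and 0.78 with pairs, and those of chromosome 17 between -1.14 and 0.07.

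The keratins that rose lie on chromosome 12. All 7 tested keratin genes of chromosome 12 rose, where type II keratins and KRT18 are clustered (27 keratin genes in the table, log2 fold changes 0.18 to 0.78, median 0.58). Of these 7, 5 are members, chosen with results known, and the others are KRT79 and KRT86, which shares sequence with KRT81. Of 3 tested keratin genes of chromosome 17, the type I cluster, 0 rose, 1 fell and 2 were not called (27 in the table). Over all tested genes 9.07% rose and 7.14% fell. On the groups alone 0 of the tested intermediate filament genes were called. From KRT80 to KRT18, 784 kb, 53 genes were annotated and 11 tested. The pseudogene KRT87P (0.36, adjusted p = 0.13) and the non-coding LINC00592 (0.68, adjusted p = 0.0686) and C12orf80 (0.10), each at low counts, were not called. This grouping by chromosome was made after the values were seen and has no test.

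**Figure D4:**
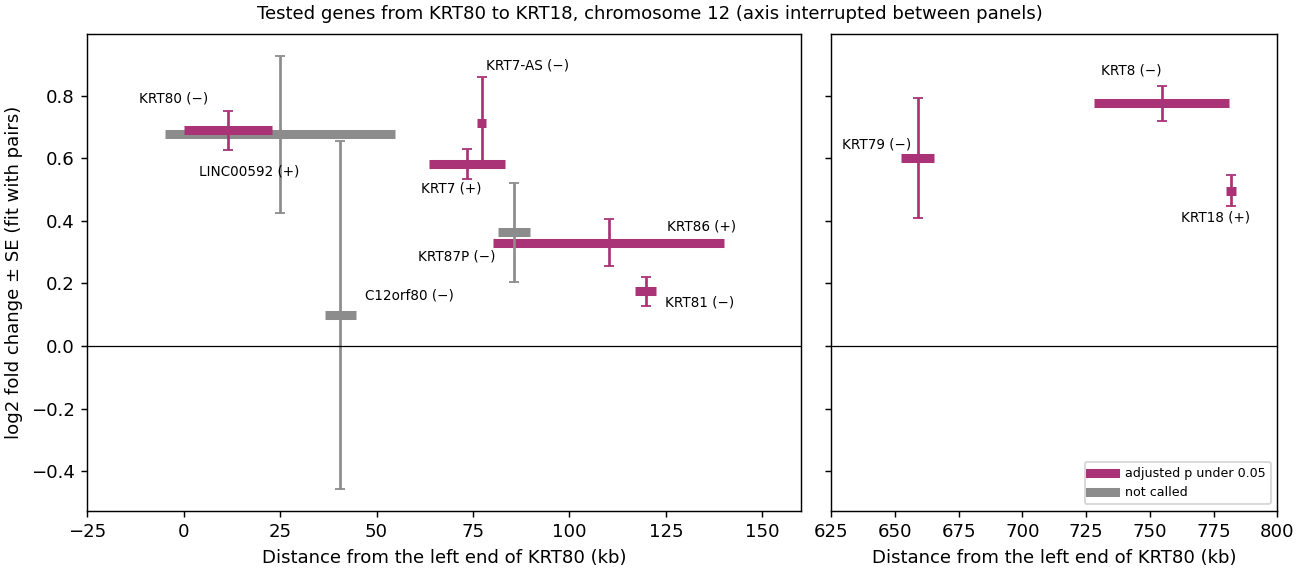
The 11 tested genes from KRT80 to KRT18 on chromosome 12, drawn as bars over their annotated spans (horizontal axis, kb from the left end of KRT80, interrupted between the panels) at their log2 fold change ± SE in the fit with pairs, strand in brackets. All 8 called genes lie above 0, from 0.18 for KRT81 to 0.78 for KRT8.

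Other proteins anchor keratin and vimentin filaments to cell contacts. Of 24 desmosome, hemidesmosome and linker genes 12 were tested, of which 2 rose, 1 fell and 9 were not called, with a median log2 fold change of 0.01. Over all tested genes 9.07% rose and 7.14% fell, so these counts were near the background. PLEC, encoding plectin, which ties filaments of both kinds to adhesions, rose from 472 to 532 CPM (0.15, SE 0.0505, adjusted p = 0.0361), and the plakophilin gene PKP4 rose by 0.17 (SE 0.0548, adjusted p = 0.0329). COL17A1, a hemidesmosome collagen, fell by 0.38 (SE 0.0974, adjusted p = 0.00836). On the groups alone edgeR called 0 of the 12, with adjusted p of 0.971 for PLEC, 0.793 for PKP4 and 0.86 for COL17A1. The linkers DST (-0.02) and MACF1 (0.01) were not called, and the desmosome genes DSG1, DSG4 and PKP2 had no count. DSP, JUP and PKP1 had 6, 3 and 2 counts summed over all libraries. DSG2, PKP3 and DSC2 averaged 4.61, 3.50 and 3.03 CPM in control libraries and were not called.

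Of 38 genes that encode regulators of keratin or vimentin transcription or filament assembly, 28 were tested, and 3 rose, 8 fell and 17 were not called, with a median of -0.00439. That is 10.7% rising, near the 9.07% of all tested genes, and 28.6% falling against 7.14%, a difference that was not tested. Among those that fell were TFAP2C, a transcription factor gene (from 7.41 to 4.35 CPM, -0.77, SE 0.152, adjusted p = 0.000752), and the endodermal factor gene FOXA2, from 66.1 to 38.9 CPM (-0.77, SE 0.0601, adjusted p = 1.08e-09; groups alone, adjusted p = 0.0548). TP63, a factor of basal epithelia (-0.42, SE 0.0678, adjusted p = 7.56e-05), the AP-1 gene JUN (-0.26, adjusted p = 0.000174) and ZEB1, a repressor of epithelial genes (-0.27, adjusted p = 0.000509), also fell. SNAI2, another repressor of epithelial genes, rose by 0.50 (SE 0.0608, adjusted p = 1.24e-06), and JUND (0.39, adjusted p = 0.000226) and ETS1 (0.27, adjusted p = 0.00111) rose. On the groups alone edgeR called 0 of the 28. Its adjusted p there was 0.241 for TFAP2C, 0.759 for TP63, 0.72 for JUN and 0.599 for ZEB1. It was 0.771 for SNAI2, 0.28 for JUND and 0.572 for ETS1. GRHL2, OVOL2 and CDX2 had no count in any library. TP63 is also on the keratinocyte list, whose sum was 71.9 to 97.5 CPM in control and 54.9 to 78.9 CPM in siUAP1 libraries. The epithelial marker CLDN4 rose from 2.79 to 4.83 CPM (0.76, SE 0.19, adjusted p = 0.00619) and the mesothelial marker CALB2 from 0.253 to 0.802 CPM (adjusted p = 0.026). CALB2 had only 76 counts over all 6 libraries. For both genes the groups overlapped, and edgeR on the groups alone gave adjusted p of 0.77 and 0.764. Of 9 epithelial and 5 mesothelial markers 4 and 2 were tested, and no other was called. The part of these regulators and markers in the keratin values was not tested.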

How the data were processed

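The authors deposited raw counts per gene, whole numbers summing to 21267240 to 25972582 per library, and a table of FPKM. Per the submitters' processing notes the build was GRCh38.p12 and DESeq2 was used; the aligner, the counting tool and its strand setting: not given in the sources used here. The coordinates come from the count table itself, where 58724 genes have the span of GENCODE release 29, the source of transcripts and sequences. Some sequences and a marker gene are not reported here.

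Counts were tested with edgeR 4.0.16 in R 4.3.3, by a quasi-likelihood fit on the group. Settings were TMM, filterByExpr with a minimum count of 10, and Benjamini-Hochberg over 15768 genes with threshold 0.05. A check on simulated data drew its counts from the fit with the replicate block. Its pass limits applied to that fit and not to the fit on the group, so it does not bear on whether the numbers are pairs. SE is the log2 fold change over the root of F. CPM use TMM-adjusted totals. Deviations from the group means correlated at 0.552, 0.454 and 0.584 between same-numbered libraries and, between others, at -0.434 to -0.0893. Centring on the group means pushes the others negative once same-number values are positive, so the negative values add no further evidence. All same-number values passed 0.1, so the numbers were taken as pairs, from the data and the titles. The library names of same-numbered control and siUAP1 libraries also share a further tag, whose meaning is not given. Every pair of replicates differed beyond counting noise (chi-square over its degrees of freedom 23.9 to 41.3). Ratios were tested by exact permutation in scipy 1.17.1, and coding sequences aligned with Biopython 1.88. Principal transcripts were the lowest numbered with an APPRIS principal tag.

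Named genes were the members, most tested intermediate filament genes, overlapping genes and copies, markers, and the 3 genes most like KRT8 or VIM. From each list up to 4 called genes per direction were named, with uncalled ones added. TFAP2C was named beyond that limit. A few uncalled genes were named after their values were seen. Members and lists were chosen with earlier results of these data known.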

Additional observations from a re-analysis of the deposited data

How the results depend on the processing

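Each of the 6 tested members kept its direction in 20 of 20 alternatives. The log2 fold change ran from 0.43 to 0.75 for KRT7, 0.47 to 1.01 for KRT8, 0.31 to 0.66 for KRT18, 0.55 to 0.93 for KRT80, 0.01 to 0.33 for KRT81 and -0.27 to -0.03 for VIM. Adjusted p ran from 1.43e-26 to 0.889 for KRT7, 9.96e-34 to 0.894 for KRT8, 1.39e-17 to 0.961 for KRT18, 6.85e-30 to 0.836 for KRT80, 0.000888 to 1.0 for KRT81 and 0.00424 to 1.0 for VIM. The lowest adjusted p of KRT8, KRT18 and KRT80 came from the edgeR block fit without pair 1, which holds only 4 libraries. With all pairs that fit gave 2.39e-10 for KRT8, so the smaller values are not stronger evidence. For KRT7, KRT81 and VIM the lowest came from DESeq2 with the block. Members called were 0 on the groups alone and 6 with the replicate block, with RLE scaling in that block, or with DESeq2 in it. They were 2 with DESeq2 without the block and 4 without a filter on low counts (KRT7, KRT8, KRT18 and KRT80; 7 tested, KRT19 with adjusted p = 0.972). Leaving out 1 library gave 0, and leaving out pairs 1, 2 and 3 in the block gave 6, 4 and 4. RLE scaling, library totals, a mean of 5 CPM and limma on FPKM gave 0.

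Genes called in all were 17 on the groups alone, 2556 with the replicate block, 2539 with RLE in the block, 1311 with DESeq2 in the block, 165 with DESeq2 and 273 without the filter. Limma gave 2 on log2(FPKM + 1), 3 on log2(FPKM + 0.1), both with a mean FPKM of at least 1, and 1 on log2(FPKM + 1) without a filter. Leaving out 1 library gave 1 to 3, and leaving out pairs 1, 2 and 3 in the block 2204, 1987 and 1195. The causes were not tested. No scaling moved the median of all genes by over 0.1.

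The type II to type I ratio reversed without siUAP1 replicate 2 (0.0907; -0.54 to 0.0907 over single libraries) and without KRT80 and KRT81 (0.14). Leaving out 1 library gave 0.22 to 0.65 for keratins over vimentin and 0.17 to 0.33 for KRT8 over KRT18. Ratios over principal transcript length, chosen after seeing the data, gave -0.17, 0.50 and 0.28. With numbers as pairs the means are unchanged and the exact sign-flip p is 0.25 for each, the smallest that 3 pairs allow. KRT19 is limited by depth.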

Other observations

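Keratin-associated protein genes, whose products bind hair keratin filaments in the hair shaft, were also measured. Of 112 annotated genes, 9 were tested, all on chromosome 17, and with pairs 0 rose, 4 fell and 5 were not called, with a median log2 fold change of -0.77. Over all tested genes 9.07% rose and 7.14% fell. The 4 were KRTAP2-3 (control 44.8 ± 6.65 CPM, siUAP1 23.2 ± 7.04 CPM, SD, n = 3; -0.97, SE 0.0818, edgeR adjusted p = 3.44e-09), KRTAP2-4 (-0.75, adjusted p = 0.0325), KRTAP4-9 (-1.12, adjusted p = 0.0125) and KRTAP4-16 (-0.77, adjusted p = 0.0214). On the groups alone 0 of the 9 were called, and KRTAP2-3 had an unadjusted p of 0.00222. How much sequence these genes share with their neighbours was not measured, so counts of single members are uncertain. The genes were chosen after their values were seen. Their values stand beside a rise with pairs of the hair keratins KRT81 and KRT86, which share sequence. Neither was called on the groups alone, and the KRT81 call ended without pair 2 or pair 3. KRT34, a keratin gene of chromosome 17 with at most 0.778 CPM, went the other way and was not called (-1.14, edgeR adjusted p = 0.131).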
